A study of Mus musculus with 4 samples.

Results

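Genes of sterol and fatty acid synthesis were followed in mouse T helper 2 (Th2) cells treated with dopamine. The set was a list of 43 gene symbols taken from pathway knowledge, with earlier results of these data known. It was matched to the rows of the deposited table, and 43 of the 43 were found among its 26207 genes. It holds 7 enzymes of the mevalonate pathway, 11 enzymes of the sterol steps, 6 genes that regulate SREBP, 4 of sterol transport and storage, 5 of the LXR and cholesterol export branch and 10 of fatty acid synthesis. The study made 4 bulk RNA-seq libraries. In 2 of them, dopamine A and dopamine B, the cells had received 10 µM dopamine, and in the other 2, PBS A and PBS B, they had received PBS. Both groups were Th2 cells with spleen as the labelled tissue. The mouse strain, sex and age, the way the cells were polarized and the length of treatment were not given in the sources used here. Nothing says whether the libraries of a group came from separate mice or cultures. The p-values therefore speak only of the spread among these 4 libraries, largely pooled over genes and possibly technical. The letters A and B only name columns of the table.

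Cholesterol is made from acetyl-CoA through mevalonate, farnesyl diphosphate, squalene and lanosterol. The SREBP transcription factors drive these enzymes and those of fatty acid synthesis. Scap escorts SREBP out of the endoplasmic reticulum when sterols are low, and the Insig proteins hold it back when sterols are high. The LXR nuclear receptors respond to oxysterols and raise cholesterol export. Activated T cells use these pathways to build membrane as they grow and divide.

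Values are normalized counts, which the authors obtained by dividing reads per gene by 1 size factor for each library. Depth was 14167357 and 11492182 reads in dopamine A and dopamine B, against 5717408 and 13241168 reads in PBS A and PBS B. Because PBS A was shallow, 1 read there was worth 1.70 normalized counts, against 0.766 to 0.971 in the other 3 libraries. A gene was called higher or lower where limma's moderated test on log2(value + 1), adjusted by Benjamini-Hochberg over all 26207 genes, gave a p under 0.05. The log2 fold changes below are dopamine minus PBS on that scale, most with a standard error (SE). Each SE comes mostly from the spread of genes of like level (42.4 prior degrees of freedom) and little from the gene's own 4 libraries. The helper T cell markers summed to 25935 and 26597 normalized counts in the dopamine libraries, against 23427 and 24887 in the PBS libraries, and 3 of the 6 markers were called higher (Cd3d, Cd3g and Trbc2) and 1 lower (Trac). Markers of several other cell types differed between the groups. The 7 B cell markers summed to 403 and 397 with dopamine, against 182 and 152 with PBS, and the 10 macrophage and monocyte markers to 97 and 92, against 202 and 218. The 7 basophil and mast cell markers summed to 868 and 808, against 2577 and 2197, and the 7 red cell and platelet markers tested, of 10 listed, to 498 and 432, against 1855 and 1571. Limma called 4 B cell markers higher. It called lower 4 macrophage and monocyte, 6 basophil and mast cell and 7 red cell and platelet markers. Among all genes 14.3% were called higher and 7.00% lower. Pax5 of the B cell list and Hdc of the basophil list were not called, with log2 fold changes of -0.06 and -0.01. The 5 neutrophil markers tested summed to only 9 and 2, against 42 and 24, and limma called 3 of them lower but DESeq2 0. The sums overlapped for the 6 dendritic cell markers, with 116 and 102 against 110 and 120, and for the 5 adipocyte and stroma markers, with 1832 and 1959 against 1933 and 2077. Pecam1 made up nearly all of the latter sum, with 1808 and 1934 against 1884 and 2035. In each of these lists limma called 1 marker lower and 0 higher. They were Clec9a, with 2 and 2 reads against 12 and 7, and Col1a1, with 11 and 11 against 14 and 32. DESeq2 called 0 in both lists. The part of these cells in the results below was not tested, and in bulk RNA a change in the number of cells of a type cannot be told apart from a change in RNA per cell.

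Of the 43 genes, 20 were called higher in dopamine-treated Th2 cells (46.5%), 2 were called lower (4.65%) and 21 did not pass the test. The 20 higher genes include enzymes of the mevalonate, sterol and fatty acid steps and SREBP and LXR regulators, with uncalled enzymes between them. They differed from PBS by 20.1% to 121%, so most of the changes were modest. The background was high. Among all genes 14.3% were called higher and 7.00% lower, and among the 8492 genes with a mean of at least 100 normalized counts 39.1% were called higher and 7.90% lower. The 6 genes of the set with a mean under 100 gave 0 calls with limma and with DESeq2, 1 with edgeR and 2 at unadjusted p under 0.05, so the abundant genes are the closer comparison. Of the 37 genes of the set at or above that mean, 20 were called higher (54.1%) and 2 lower (5.41%). Their median log2 fold change was 0.31, against 0.198 for all genes at that mean. Because earlier results of these data were known when the set was chosen, these comparisons may not be free of selection. Both dopamine libraries lay above both PBS libraries for 28 of the 43 genes and below both for 7. That order held, dopamine above, for 28.5% of all genes and 60.8% of the abundant ones, and, dopamine below, for 30.4% of all genes and 15.4% of the abundant ones. In the 37 abundant genes of the set it was 27 above (73.0%) and 5 below (13.5%). For called genes, here and below, this order is not separate evidence, since the call rests on the same values. The 43 genes together took 0.312% and 0.329% of all normalized counts in the dopamine libraries, against 0.284% and 0.287% in the PBS libraries.

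This count rested in part on 2 libraries. Without PBS A, 8 of the 37 abundant genes were called higher (21.6%), against 22.4% of all abundant genes. Without dopamine B, 10 were called higher (27.0%), against 24.5% of all abundant genes. In only these 2 of the 11 alternatives did the share called higher come near that of all abundant genes. With edgeR it was 43.2%, against 29.4%. The median log2 fold change of the 37 genes stayed above that of all abundant genes with each library left out. It was 0.248 against 0.164 without PBS A, and 0.25 against 0.172 without dopamine B. It was 0.363 against 0.219 without dopamine A, and 0.35 against 0.229 without PBS B. Scaling also mattered. When the libraries were instead scaled by the abundant genes alone, all genes shifted by -0.175 on the log2 scale. Of the 37 genes, 11 were then called higher (29.7%) and 5 lower (13.5%), against 18.7% and 18.8% of all abundant genes. Over all genes, the share of calls that were higher was 67.1% as tested, 36.3% with that scaling, 53.5% with edgeR, 78.0% with DESeq2 and 81.3% after a filter at 5 CPM. Hmgcs1, Pmvk, Idi1, Cyp51 and Scd2 were called higher, and Lpin1 lower, in the main test and in all 11 alternatives.

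**Figure D1:**
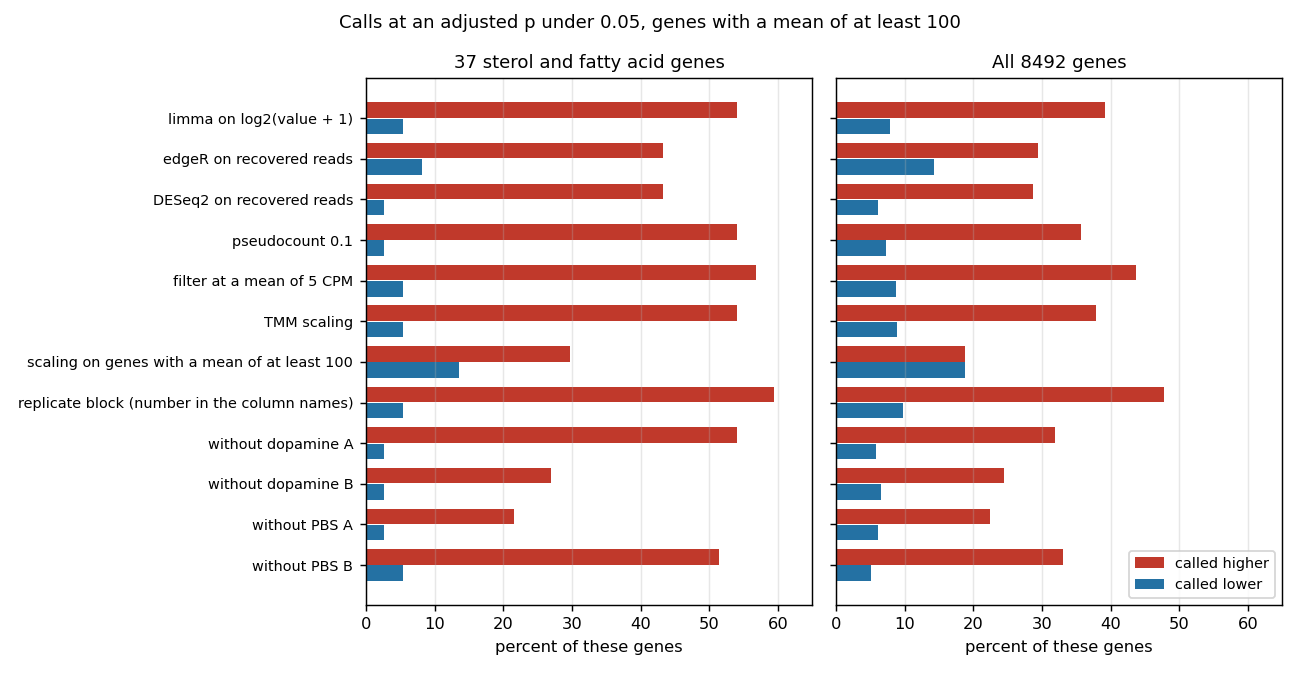
Percent of genes called higher (red) and lower (blue) in dopamine against PBS, for the 37 sterol and fatty acid genes with a mean of at least 100 normalized counts (left) and all 8492 genes at that mean (right), under the main test and 11 alternatives. The red bar on the left falls near that on the right without PBS A and without dopamine B. In the main test and the other alternatives the red bar on the left is the higher.

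Promoter sequences are shown for 5 genes that span the responses, from RefSeq on GRCm38.p6, as the 250 bases before an annotated start, 5′ to 3′ on the gene's strand. Capitals mark the sterol regulatory element TCACNCCAC and the CCAAT box, each searched on both strands (ATTGG is the CCAAT box read from the other strand). Hmgcs1 was the only gene of the set with a window that held the element, and Pmvk had the largest rise. Mvk held the most CCAAT boxes but did not pass the expression test, Fasn stands for fatty acid synthesis, and Lpin1 had the largest fall among called genes. The Hmgcs1 window is chr13:119690101-119690350 (+), the Pmvk window chr3:89454291-89454540 (+), which is 1 of 2 listed for that gene, the Mvk window chr5:114444019-114444268 (+), the Fasn window chr11:120824548-120824797 (-) and the Lpin1 window chr12:16610967-16611216 (-).
Hmgcs1: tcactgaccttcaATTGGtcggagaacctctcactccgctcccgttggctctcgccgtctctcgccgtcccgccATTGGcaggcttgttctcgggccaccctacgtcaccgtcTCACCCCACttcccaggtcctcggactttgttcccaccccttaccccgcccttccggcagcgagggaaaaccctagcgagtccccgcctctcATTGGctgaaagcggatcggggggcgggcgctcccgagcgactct
Pmvk: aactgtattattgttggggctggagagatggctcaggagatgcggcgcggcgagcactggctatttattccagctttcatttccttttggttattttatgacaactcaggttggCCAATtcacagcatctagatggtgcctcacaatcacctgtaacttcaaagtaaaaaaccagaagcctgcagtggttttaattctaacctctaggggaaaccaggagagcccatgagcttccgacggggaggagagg
Mvk: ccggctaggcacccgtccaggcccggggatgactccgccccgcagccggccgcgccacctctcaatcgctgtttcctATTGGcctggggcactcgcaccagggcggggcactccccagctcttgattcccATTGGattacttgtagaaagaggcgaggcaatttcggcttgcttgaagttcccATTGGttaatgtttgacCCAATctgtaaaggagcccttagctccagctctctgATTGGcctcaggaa
Fasn: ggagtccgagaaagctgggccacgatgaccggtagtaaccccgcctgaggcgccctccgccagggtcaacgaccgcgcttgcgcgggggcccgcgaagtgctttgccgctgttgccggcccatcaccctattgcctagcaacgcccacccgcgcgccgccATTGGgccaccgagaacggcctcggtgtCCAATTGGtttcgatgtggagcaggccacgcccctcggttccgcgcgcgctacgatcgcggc
Lpin1: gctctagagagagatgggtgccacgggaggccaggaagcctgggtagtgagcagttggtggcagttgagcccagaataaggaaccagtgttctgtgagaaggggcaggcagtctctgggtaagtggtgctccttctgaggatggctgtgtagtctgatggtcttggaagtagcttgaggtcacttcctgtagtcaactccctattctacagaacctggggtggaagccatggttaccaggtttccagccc
Windows were found for 34 of the 43 genes. The sterol regulatory element occurred in 1 of the 34 (2.94%), against 1.22% of the 27025 genes with a window. The CCAAT box occurred in 24 of the 34 (70.6%), against 37.5% of all genes with a window. Among the mevalonate and sterol enzymes it was found in 14 of 15 (93.3%). It did not separate genes by response, since 12 of the 17 genes called higher and 12 of the 17 others held it. The letters searched are strict forms, and their absence from a window says nothing of binding.

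The mevalonate enzymes gave 3 higher calls and 0 lower among 7 (42.9% higher, against 39.1% of all abundant genes), with a median log2 fold change of 0.27. Fdps, which was not called, has a mean under 100, so the shares are not a like comparison. No enzyme of this group was lower at unadjusted p under 0.05, and edgeR and DESeq2 also gave 3 higher calls and 0 lower. Pmvk, phosphomevalonate kinase, moved most of the 43 genes. It had 696 and 640 normalized counts in the dopamine libraries, against 285 and 320 in the PBS libraries (log2 fold change 1.14, SE 0.10, limma adjusted p = 6.67e-12). Each dopamine value lay well above each PBS value. Hmgcs1, which makes HMG-CoA, had 2261 and 2232 with dopamine, against 1493 and 1545 with PBS (0.56, SE 0.07, limma adjusted p = 4.1e-08). Idi1, the isomerase that gives the activated isoprene unit, had 427 and 385, against 272 and 257 (0.62, SE 0.11, limma adjusted p = 4.02e-05). For both genes the libraries of a group lay close together and the groups did not overlap, which, with dopamine above, held for 60.8% of all abundant genes. The other 4 enzymes had log2 fold changes of 0.08 to 0.27 and did not pass the test. They were Acat2, the thiolase that opens the pathway, Mvk, mevalonate kinase, Mvd, which decarboxylates mevalonate diphosphate, and Fdps, farnesyl diphosphate synthase. Pmvk and Idi1 were therefore called while the enzymes beside them in the pathway, Mvk, Mvd and Fdps, were not, and no test of a difference between genes was made. Fdps shares 26.7% of its exon bases with Gm43738 on the same strand, and what this did to its count was not tested.

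The sterol enzymes gave 6 higher calls and 0 lower among 11 (54.5% higher, against 39.1% of all abundant genes), with a median log2 fold change of 0.26. Tm7sf2, which was not called, has a mean under 100, so the shares are not a like comparison. At unadjusted p under 0.05 the counts were 8 and 0, and edgeR and DESeq2 each gave 4 and 0. Without dopamine B, and likewise without PBS A, limma gave 2 higher calls, Sqle and Cyp51, and with scaling on abundant genes it gave 3, Fdft1, Cyp51 and Hsd17b7. Fdft1, squalene synthase and the entry to the sterol branch, had 714 and 850 normalized counts in the dopamine libraries, against 538 and 598 in the PBS libraries (0.46, SE 0.10, limma adjusted p = 0.000334). Sqle, squalene epoxidase, had 837 and 818, against 649 and 609 (0.40, SE 0.09, limma adjusted p = 0.000843). Cyp51, the lanosterol demethylase, had 2488 and 2459, against 1916 and 1719 (0.45, SE 0.07, limma adjusted p = 4.52e-06). None of these overlapped between groups, and the same order, dopamine above, held for 60.8% of all abundant genes. Hsd17b7, a sterol ketoreductase, had 235 and 276 with dopamine, against 153 and 185 with PBS (0.59, SE 0.14, limma adjusted p = 0.000877). Msmo1, the methylsterol oxygenase, had 708 and 722, against 610 and 582 (0.26, SE 0.09, limma adjusted p = 0.0347). Ebp, the sterol isomerase, had 386 and 398, against 284 and 337 (0.34, SE 0.11, limma adjusted p = 0.0247). Msmo1 and Ebp were the weakest of the 6, and neither was called by edgeR or DESeq2. The remaining 5 enzymes did not pass the test. Lss, lanosterol synthase, and Sc5d, a desaturase of the late steps, had log2 fold changes of 0.24 and 0.19. Nsdhl, which removes methyl groups from sterols, stood at -0.06, Dhcr7, a reductase of the last steps, at -0.28 and Tm7sf2, a sterol reductase, at -0.32. For Dhcr7 and Tm7sf2 both dopamine values lay below both PBS values, an order seen in 15.4% of all abundant genes and 30.4% of all genes. With scaling on abundant genes both were called lower.

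**Figure D2:**
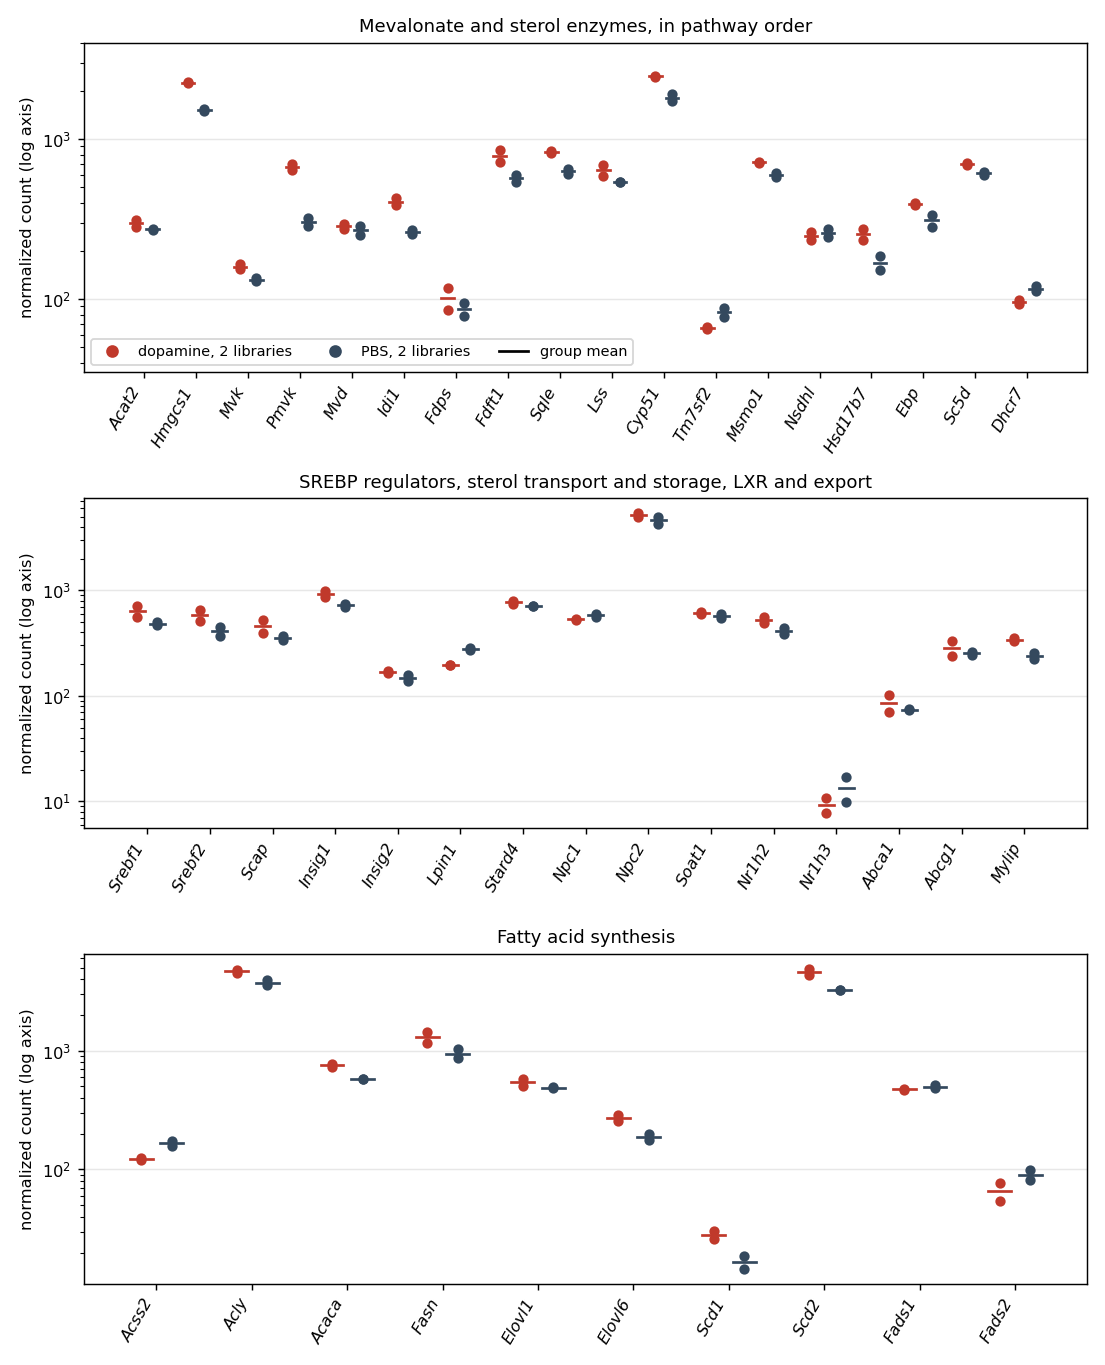
Normalized counts (log axis) of the 43 genes in the 2 dopamine libraries (red, left of each pair) and the 2 PBS libraries (dark blue, right), each point 1 library and each line a group mean. Pmvk shows the widest gap, with 696 and 640 in dopamine against 285 and 320 in PBS, while Lpin1 and Acss2 are lower with dopamine.

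Of the 6 SREBP regulators, 4 were called higher (66.7%) and 1 lower (16.7%), against 39.1% and 7.90% of all abundant genes. Srebf1, which encodes the SREBP most tied to fatty acid genes, had 559 and 717 normalized counts in the dopamine libraries, against 467 and 500 in the PBS libraries (0.39, SE 0.10, limma adjusted p = 0.0046). Srebf2, tied more to sterol genes, had 511 and 644, against 372 and 451 (0.49, SE 0.11, limma adjusted p = 0.000737). Scap, the escort, had 398 and 519, against 335 and 370 (0.37, SE 0.11, limma adjusted p = 0.0156), a call absent with edgeR, with DESeq2 and without PBS B. In all 3, dopamine B was the high library and dopamine A lay nearer to PBS. The authors' deposited SEs for these genes were wider, at 0.15 for Srebf1, 0.16 for Srebf2 and 0.17 for Scap. Insig1, a retention factor that is itself an SREBP target, had 872 and 985 with dopamine, against 702 and 747 with PBS (0.36, SE 0.09, limma adjusted p = 0.00246). Insig2, its relative, had 164 and 172, against 139 and 159, a difference that did not pass the test (0.17, 95% interval -0.12 to 0.46, limma adjusted p = 0.446). Lpin1, a phosphatidate phosphatase that also restrains nuclear SREBP, went the other way, with 198 and 194 against 270 and 285 (-0.50, SE 0.13, limma adjusted p = 0.00251). The 4 higher calls were lost without dopamine B, which left 0, and without PBS A, which also left 0, and with scaling on abundant genes only that of Srebf2 remained, whereas Lpin1 was called lower in each case.

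The 4 genes of sterol transport and storage gave no call, either higher or lower, against 39.1% higher and 7.90% lower among all abundant genes. With so few genes a difference from those shares was not tested. Npc2, which carries cholesterol in the lysosome, had 4913 and 5345 normalized counts in the dopamine libraries, against 4230 and 4964 in the PBS libraries (0.16, limma adjusted p = 0.0789). Npc1, its membrane partner, had 526 and 538, against 554 and 601 (-0.12, limma adjusted p = 0.433). Stard4, a cytosolic sterol carrier, had 748 and 798, against 710 and 705 (0.13, limma adjusted p = 0.34), and Soat1, which esterifies cholesterol for storage, had 591 and 619, against 598 and 548 (0.08, limma adjusted p = 0.601). The groups overlapped for Npc2 and Soat1. At an unadjusted limma p under 0.05 there was 1 gene, Npc2, while edgeR called 1 gene, Npc1, lower and DESeq2 called 0. The directions of Npc2, Stard4 and Soat1 turn negative with scaling on abundant genes, and that of Soat1 also with edgeR.

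Of the 5 genes of the LXR and export branch, 2 were called higher (40.0%, against 39.1% of all abundant genes). Abca1 and Nr1h3, both uncalled, have means under 100, so the shares are not a like comparison. Nr1h2, which encodes LXR-beta, had 492 and 555 normalized counts in the dopamine libraries, against 382 and 439 in the PBS libraries (0.35, SE 0.11, limma adjusted p = 0.012). Mylip, an LXR-induced ubiquitin ligase that sends lipoprotein receptors for degradation, had 329 and 350, against 223 and 257 (0.50, SE 0.12, limma adjusted p = 0.00144). Neither gene overlapped between groups, and neither was called without PBS A. Nr1h2 was also not called by edgeR or DESeq2. Groups that do not overlap, with dopamine above, were seen for 60.8% of all abundant genes. The exporters did not pass the test. Abca1 had 71.0 and 101, against 74.7 and 72.8 (0.20, 95% interval -0.20 to 0.59, limma adjusted p = 0.517), and Abcg1 had 236 and 332, against 246 and 262 (0.14, interval -0.12 to 0.40, limma adjusted p = 0.491). In both the dopamine libraries straddled the PBS values. Nr1h3, which encodes LXR-alpha, was low, with 14 and 8 reads in the dopamine libraries, against 10 and 13 in the PBS libraries. That was 10.8 and 7.77 normalized counts, against 17.0 and 9.96 (-0.47, interval -1.39 to 0.46, limma adjusted p = 0.515), so a difference was not detectable at this depth. Macrophages are a known source of LXR-alpha and export transcripts, and their markers summed to 97 and 92 with dopamine, against 202 and 218 with PBS, whose part in these values was not tested.

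Among the 10 fatty acid synthesis genes 5 were called higher (50%) and 1 lower (10%), against 39.1% and 7.90% of all abundant genes, with a median log2 fold change of 0.34. Scd1 and Fads2, both uncalled, have means under 100, so the shares are not a like comparison. The 3 enzymes that carry citrate to palmitate were all called higher, though with scaling on abundant genes Acly and Acaca were not. Acly, ATP citrate lyase, had 4484 and 4784 normalized counts in the dopamine libraries, against 3574 and 3901 in the PBS libraries (0.31, SE 0.06, limma adjusted p = 0.00023). Acaca, acetyl-CoA carboxylase, had 731 and 769, against 576 and 577 (0.38, SE 0.09, limma adjusted p = 0.00178), and Fasn, fatty acid synthase, had 1170 and 1432, against 863 and 1026 (0.46, SE 0.09, limma adjusted p = 0.000113). Elovl6, which elongates palmitate, had 258 and 288 with dopamine, against 197 and 178 with PBS (0.54, SE 0.13, limma adjusted p = 0.00136). Scd2, a stearoyl-CoA desaturase, had 4364 and 4836, against 3224 and 3255 (0.50, SE 0.06, limma adjusted p = 4.34e-08). Without PBS A neither Acly nor Fasn was called, and without dopamine B Elovl6 was not. In all 5 genes both dopamine values lay above both PBS values, as in all 20 genes called higher and in 60.8% of all abundant genes. The calls used the same values, so this order is not separate evidence. Acss2, which makes acetyl-CoA from acetate, was lower, with 120 and 126 against 175 and 156 (-0.43, SE 0.15, limma adjusted p = 0.0357), a call absent with DESeq2, with a pseudocount of 0.1, and without dopamine A, dopamine B or PBS A. Fads1 and Fads2, the desaturases that make polyunsaturated fatty acids, had log2 fold changes of -0.06 and -0.48, and Elovl1, which elongates very long chains, had 0.15. None of the 3 passed the test, nor did Scd1, a paralog of Scd2, with 39 and 27 reads in the dopamine libraries, against 11 and 19 in the PBS libraries (0.73, 95% interval 0.06 to 1.41, limma adjusted p = 0.118).

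**Figure D3:**
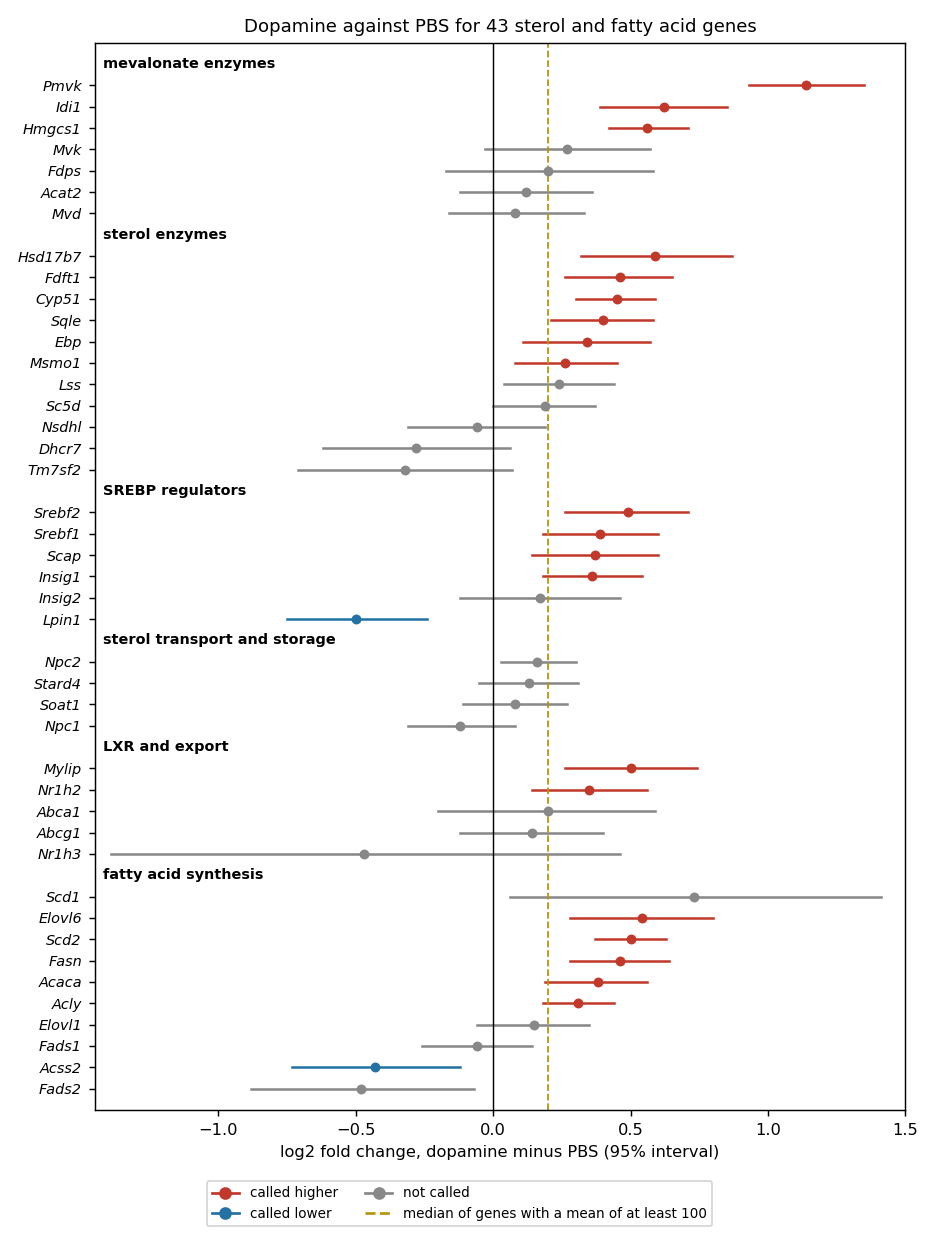
Log2 fold change of each of the 43 genes, dopamine minus PBS, with its 95% interval from limma, in blocks by role. Red marks genes called higher, blue genes called lower and grey those not called, and the dashed line is the median of all genes with a mean of at least 100 (0.198).

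Per kilobase of exon, the most abundant transcripts of the set were Npc2, with a mean of 943 normalized counts per kilobase in dopamine libraries against 845 in PBS libraries, Acly, with 878 against 708, and Scd2, with 842 against 593. Cyp51 stood at 560 per kilobase against 412, and Hmgcs1 at 489 against 331. Between paralogs the levels were far apart. Scd2 exceeded Scd1, which had 5.75 per kilobase with dopamine against 3.40 with PBS, and Nr1h2, with 156 against 122, exceeded Nr1h3, with 3.69 against 5.36. Insig1 had 300.0 per kilobase against 234, above Insig2 with 48.3 against 43.0, whereas Srebf1 and Srebf2 were nearer, with 113 against 85.9 and 80.4 against 57.2. These levels are per length of merged exons and do not allow for isoforms. Scd1 and Scd2 are similar in sequence, so reads may have been shared or lost between them.

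**Figure D4:**
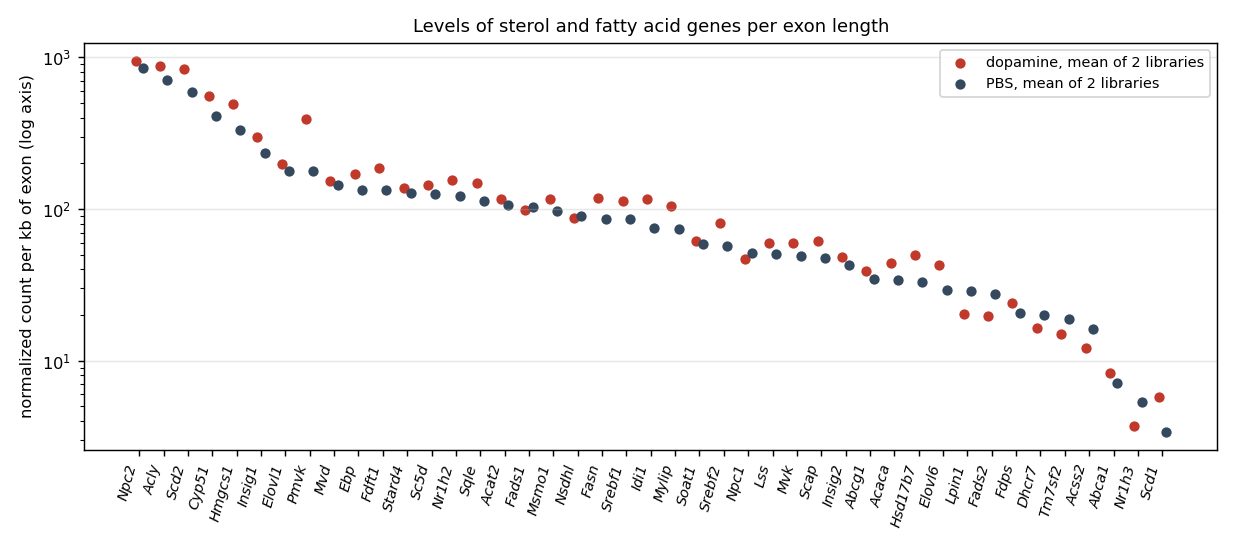
Mean normalized count per kilobase of exon (log axis) of the 43 genes in the 2 dopamine libraries (red) and the 2 PBS libraries (dark blue), ordered by the PBS mean. Npc2, Acly and Scd2 lead the order, and Abca1, Nr1h3 and Scd1 close it.

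Genes of neighbouring pathways that are not in the set were described from lists of pathway genes. Each list also holds genes with a mean under 100, so the share of all abundant genes beside a count is not a like comparison. The isoprenoid branches, which use farnesyl and geranylgeranyl diphosphate, gave 10 higher calls and 0 lower among 15 genes (66.7% higher, against 39.1% of all abundant genes and 14.3% of all genes), with a median log2 fold change of 0.40. Nus1, a subunit of the dolichol-making prenyltransferase, had 998 and 950 normalized counts in the dopamine libraries, against 612 and 694 in the PBS libraries (0.58, SE 0.09, limma adjusted p = 2.18e-06). Rabggtb, the beta subunit of the Rab prenyltransferase, had 1278 and 1197, against 894 and 851 (0.50, limma adjusted p = 6.41e-06). Without dopamine B, and likewise without PBS A, the list gave 3 higher calls, and with scaling on abundant genes it gave 3 higher and 1 lower. edgeR gave 6 higher and 0 lower, DESeq2 5 and 0, and no gene of the list was lower at unadjusted p under 0.05. Nus1 and Rabggtb were called in all 11 alternatives.

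SREBP processing and sterol-regulated degradation gave 5 higher calls and 0 lower among 12 genes (41.7% higher, near the 39.1% of all abundant genes). Fbxw7, the ubiquitin ligase subunit that marks nuclear SREBP for degradation, had 1119 and 1153 normalized counts with dopamine, against 800.0 and 840.0 with PBS (0.47, limma adjusted p = 2.49e-05). Sec23a, a coat protein of the vesicles that leave the endoplasmic reticulum, had 659 and 595, against 479 and 473 (0.40, limma adjusted p = 0.0021). Without PBS A the list gave 2 higher calls, and the same number without dopamine A, and with scaling on abundant genes it gave 1 higher and 1 lower. edgeR and DESeq2 each gave 4 higher and 0 lower, and no gene was lower at unadjusted p under 0.05. Sec23a was not called with that scaling or without dopamine A. Sterol uptake, transfer and oxysterol genes gave 6 higher and 2 lower calls among 16 tested of 18 listed (37.5% higher and 12.5% lower, against 39.1% and 7.90% of all abundant genes), and scaling on abundant genes turned this to 3 higher and 4 lower. Osbpl9, an oxysterol-binding protein, had 1666 and 1762, against 1160 and 1191 (0.54, limma adjusted p = 3.46e-07). Of the lipoprotein receptors, Lrp8 had 349 and 362, against 211 and 244 (0.65, limma adjusted p = 4.41e-05). Vldlr went the other way, with 56.3 and 65.1 with dopamine, against 136 and 121 with PBS (-1.07, limma adjusted p = 1.01e-05).

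Fatty acid supply and elongation gave 3 higher calls and 1 lower among 16 genes (18.8% higher and 6.25% lower), with a median log2 fold change of 0.00872. The shares were 39.1% and 7.90% of all abundant genes, and 14.3% and 7.00% of all genes. Neither is a like comparison, since several of these genes, such as Me1, Acacb and Fads3, have means under 100. Elovl5, which elongates polyunsaturated fatty acids, had 1824 and 1916 normalized counts in the dopamine libraries, against 2660 and 2852 in the PBS libraries (-0.56, SE 0.07, limma adjusted p = 2.79e-08), and was called lower in all 11 alternatives. Hsd17b12, the ketoreductase of elongation, had 1269 and 1231, against 900.0 and 1040.0 (0.37, limma adjusted p = 0.000815), and Mcat, of mitochondrial fatty acid synthesis, had 248 and 313, against 206 and 211 (0.42, limma adjusted p = 0.0152). Hsd17b12 was called in 9 of the 11 alternatives and Mcat in only 6, and DESeq2 did not call Mcat. Both calls were absent without PBS A, and with scaling on abundant genes the list gave 0 higher calls and 2 lower. Fatty acid activation and glycerolipid genes gave 4 higher and 0 lower calls among 18 (22.2% higher, against 39.1% of all abundant genes and 14.3% of all genes). Several of these too, such as Lpin3 and Dgat2, have means under 100. The list gave 0 lower at unadjusted p under 0.05, 1 lower with edgeR and 0 with DESeq2. Acsl5, an acyl-CoA synthetase, had 3349 and 3430, against 2516 and 2646 (0.39, limma adjusted p = 9.96e-06). The acyltransferases Agpat3 and Agpat1 had log2 fold changes of 0.34 (limma adjusted p = 0.000355) and 0.63 (limma adjusted p = 0.00197). Neither was called without PBS A, nor was Agpat3 with scaling on abundant genes or Agpat1 with DESeq2.

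Fatty acid oxidation, the opposing route, gave 6 higher calls and 1 lower among 17 genes tested of 18 (35.3% higher and 5.88% lower, against 39.1% and 7.90% of all abundant genes). Cpt1a, which admits fatty acids to mitochondria, was the lower one, with 418 and 521 normalized counts with dopamine, against 698 and 802 with PBS (-0.68, SE 0.10, limma adjusted p = 1.24e-06), and was called lower in all 11 alternatives. The enzymes inside mitochondria included higher calls. Acadvl, a very-long-chain acyl-CoA dehydrogenase, had 531 and 643, against 326 and 446 (0.61, limma adjusted p = 5.5e-05, not called without PBS A), and Eci1, an enoyl-CoA isomerase, had 129 and 102, against 66.2 and 55.9 (0.90, limma adjusted p = 0.000256). Without PBS A the list gave 1 higher call and 1 lower. Scaling on abundant genes left 2 higher and 1 lower.

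In the authors' deposited table, 42 of the 43 genes had an adjusted p, and 16 were higher and 1 was lower at 0.05. Of all 26205 gene symbols, 12996 had an adjusted p, and 2542 were higher and 719 lower. These counts equal those of the DESeq2 alternative, so they are not separate evidence. In that alternative 43.2% of the 37 abundant genes of the set were higher and 2.7% lower, against 28.7% and 6.03% of all abundant genes. By GENCODE M21 on GRCm38, 6 of the 43 genes share at least 5% of their exon bases with another gene. They are Fdft1, Fdps, Hmgcs1, Idi1, Scap and Tm7sf2. Whether the counting used strand is not given in the sources used here, and reads of these genes may have been mixed with those of their overlapping neighbours, or lost. For Fdps (26.7%, with Gm43738) and Tm7sf2 (12.1%, with Vps51) the neighbour lies on the same strand, so strand could not separate them.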

How the data were processed

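Per the labels' protocols, total RNA was made into libraries with the TruSeq Stranded mRNA chemistry. The submitters' processing notes name FastQC 0.11.2, TopHat2 2.0.13, HTSeq 0.6, DESeq2 and R 3.6.2, with mm10 as the build. The deposited table holds a signal for each of 4 libraries, which is the authors' read count divided by 1 size factor for each library, per the file headers and the values. It also holds the authors' deposited log2 fold change, Wald score and p-values from DESeq2. Columns were matched to groups only, since their numbers differ from the replicate numbers of the titles. All values came out as whole reads within a tolerance of 0.01, and no gene had under 8 reads in total, so depth could be recovered. Counts within each group varied beyond sampling noise (chi-square per degree of freedom 3.43 for dopamine and 2.37 for PBS).

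In R 4.3.3, log2(value + 1) was tested with limma 3.58.1 and its mean-variance trend, with no filter, 2-sided, over all 26207 genes. A fold change on that scale understates the change of low genes. Alternatives were edgeR 4.0.16 (quasi-likelihood, TMM) and DESeq2 1.42.0 on recovered reads, a lower pseudocount (0.1), removal of genes under a mean of 5 CPM, 2 other scalings, a replicate block and leaving out each library. The limma fit was tested on simulated data. The members and lists were chosen with earlier results of these data known. Every one of the 43 genes is named, called genes and the SREBP and LXR regulators and exporters have the value in every library, and up to 3 genes with the smallest p are named from each neighbouring list, of which 2 genes are not reported here. Gene positions and exon lengths came from GENCODE M21, and promoters from RefSeq on GRCm38.p6.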

Additional observations from a re-analysis of the deposited data

How the results depend on the processing

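Of the 22 calls, 6 were made in the same direction in all 11 alternatives (Hmgcs1, Pmvk, Idi1, Cyp51, Scd2 and Lpin1), and no called gene changed direction. The count of genes called higher, 20 in the main test, was 11 with scaling on abundant genes and 8 to 20 with 1 library left out. The count called lower, 2 in the main test, was 4 with edgeR, 1 with DESeq2, 1 with a pseudocount of 0.1, 7 with scaling on abundant genes and 1 to 2 with 1 library left out. By role, scaling on abundant genes gave 3 higher and 2 lower sterol enzymes, 1 higher SREBP regulator, 1 lower transport gene, 1 higher LXR gene, and 3 higher and 3 lower fatty acid genes. With 1 library left out, higher calls were 2 to 5 for sterol enzymes, 0 to 4 for SREBP regulators, 0 to 1 for transport, 0 to 2 for LXR and 3 to 5 for fatty acid genes, and lower calls 0 to 1 for fatty acid genes. edgeR gave 1 lower transport gene, 1 higher LXR gene and 2 lower fatty acid genes. DESeq2 gave 1 higher LXR gene and 0 lower fatty acid genes, and the pseudocount of 0.1 also gave 0 of these. Over all genes, 5577 calls became 3261 with DESeq2 and 2914 to 4299 with 1 library left out. The median log2 fold change of the 43 genes was 0.264, against 0.0692 with scaling on abundant genes.

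Directions turned only for genes that were not called. Scaling on abundant genes gave log2 fold changes of -0.07 for Acat2, -0.11 for Mvd, -0.01 for Sc5d, -0.02 for Insig2, -0.07 for Stard4, -0.03 for Npc2, -0.11 for Soat1, -0.05 for Abcg1 and -0.05 for Elovl1, and edgeR gave -0.04 for Mvd and -0.01 for Soat1. With 1 library left out, Mvd ranged from -0.01 to 0.18, Fdps from -0.02 to 0.43, Nsdhl from -0.14 to 0.02, Abca1 from -0.05 to 0.45 and Abcg1 from -0.11 to 0.39. The cause of these shifts was not tested. Where a group kept 1 library, that library was assumed to vary like the other group.

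The libraries share the column numbers 2 and 3 across groups, but with 2 pairs the numbers are no evidence of pairing, and deviations of same-numbered libraries correlated at 0.214 over 8492 genes. With the number as a replicate block, 22 genes were called higher and 3 lower, including 1 higher transport gene and 2 lower fatty acid genes. Of the 37 abundant genes of the set 59.5% were then higher and 5.41% lower, against 47.7% and 9.76% of all abundant genes. Calls also rose over all genes, from 3743 to 4627 higher and from 1834 to 2372 lower. Depth limits Nr1h3 and Scd1 most, with under 40 reads in each library.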
